A study of Mus musculus with 8 samples.

Results

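The regions described here are broad stretches of open chromatin at the ends of protein-coding genes in mouse splenic natural killer (NK) cells. The peaks of 8 ATAC-seq lists were merged wherever they shared at least 1 bp, and a region was kept if it held a peak in all 8 lists, was at least 1500 bp wide after merging and had an annotated gene start or end within 1 kb. Of 55946 merged regions, 376 met these conditions. They lay at the ends of 448 genes, or 4.02% of the 11138 genes that had any gene-end region with a peak in all 8 lists. The regions were thus chosen by their merged width and their presence in every list, and both are given below only as descriptions.

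ATAC-seq marks open chromatin with a transposase that inserts sequencing adapters into accessible DNA. NK cells were taken from the spleens of unchallenged mice, enriched with DX5 beads and sorted as CD49b+ CD3e- cells, and 200000 cells of each animal entered the assay. There were 4 mice wild-type for HSF1 (WT, replicates 4, 5, 6 and 7) and 4 mice whose HSF1 has alanine in place of the serines at positions 303 and 307 (MUT, or S303/7A, replicates 26, 27, 28 and 29), which the series calls HSF1-enhanced. The mutation is described for the mice, not for NK cells alone and the labels state no ages. Each mouse was 1 replicate. A gene-end region in all 8 lists was present at all 11 genes of a short NK marker list, among them Ncr1, Klrk1, Eomes, Prf1 and Il2rb. Of the longer NK lists, 19 of 30 receptor and adaptor genes and 17 of 20 effector genes had one. So did 6 of 12 T cell markers, Cd3e included, 5 of 14 myeloid and dendritic cell markers and 2 of 12 B cell markers. The counts were 5 of 8 for markers of type 1 innate lymphoid cells, 3 of 10 for erythroid and platelet markers and 2 of 8 for basophil and mast cell markers. None of the genes in any of these lists lay at a broad region.

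HSF1 activates heat shock genes, and serines 303 and 307 are phosphorylation sites linked to its repression. Gene starts in active genes are usually kept free of nucleosomes over a short stretch, flanked by positioned nucleosomes. Starts rich in CpG dinucleotides tend to be open in many cell types. Accessibility that reaches far into the gene body has been described at very heavily transcribed genes.

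Promoter sequences are shown for 5 genes whose start lies in a broad region and that head the width order of their gene group. Each line is the 250 bases before the start listed in the RefSeq promoter table (GRCm38.p6), 5′ to 3′ on the gene's strand. The listed start lies within 1 kb of the outer gene start, which is used for distances elsewhere. Capitals mark matches, on either strand, to the GC box GGGCGG (bound by SP factors), the CCAAT box CCAAT (bound by NF-Y), the TATA box TATAAA, the cyclic AMP element TGACGTCA, the AP-1 motif TGANTCA and the core of the heat shock element, GAANNTTC or TTCNNGAA. Jun, the AP-1 subunit gene, is at chr4:95052223-95052472 on the minus strand. Stat6, the transcription factor of interleukin-4 signalling, is at chr10:127642736-127642985 on the plus strand. H4c1, a replication-dependent histone H4 gene, is at chr13:23761250-23761499 on the minus strand. Inpp5d, which encodes the inositol phosphatase SHIP1, is at chr1:87620062-87620311 on the plus strand. Crebbp, the acetyltransferase CBP, is at chr16:4213405-4213654 on the minus strand. The outer gene start of Crebbp is at 4213957, so its stretch lies inside the gene. The outer start of Stat6, at 127642955, lies within its stretch.
Jun: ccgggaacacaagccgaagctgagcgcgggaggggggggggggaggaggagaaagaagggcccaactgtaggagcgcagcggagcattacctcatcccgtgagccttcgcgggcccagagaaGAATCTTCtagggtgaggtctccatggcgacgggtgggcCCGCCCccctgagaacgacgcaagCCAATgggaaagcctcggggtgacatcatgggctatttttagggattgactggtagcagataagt
Stat6: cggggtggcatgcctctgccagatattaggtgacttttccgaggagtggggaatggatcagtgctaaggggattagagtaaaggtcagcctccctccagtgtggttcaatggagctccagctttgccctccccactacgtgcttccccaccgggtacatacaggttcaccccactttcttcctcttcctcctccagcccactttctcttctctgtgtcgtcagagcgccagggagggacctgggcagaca
H4c1: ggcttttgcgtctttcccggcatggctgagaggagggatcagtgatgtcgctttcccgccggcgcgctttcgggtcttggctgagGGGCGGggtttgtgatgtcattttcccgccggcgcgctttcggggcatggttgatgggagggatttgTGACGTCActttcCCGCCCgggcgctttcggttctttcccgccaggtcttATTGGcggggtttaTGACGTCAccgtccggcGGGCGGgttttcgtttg
Inpp5d: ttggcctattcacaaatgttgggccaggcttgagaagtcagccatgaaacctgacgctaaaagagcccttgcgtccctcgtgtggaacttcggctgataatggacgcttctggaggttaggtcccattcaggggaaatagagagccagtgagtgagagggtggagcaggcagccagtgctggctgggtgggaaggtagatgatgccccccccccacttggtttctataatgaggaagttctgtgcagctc
Crebbp: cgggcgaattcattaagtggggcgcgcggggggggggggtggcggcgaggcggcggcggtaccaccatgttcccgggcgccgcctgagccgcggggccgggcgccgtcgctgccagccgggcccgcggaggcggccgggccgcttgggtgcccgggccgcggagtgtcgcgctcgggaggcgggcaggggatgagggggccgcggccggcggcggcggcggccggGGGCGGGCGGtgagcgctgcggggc
These 5 promoters differ widely in composition. The Crebbp stretch was 84.0% G and C with 44 CpG dinucleotides. Its only matches were a pair of overlapping GC boxes at -25 and -21, counted with the listed start as 0. The H4c1 stretch held 27 CpG, 3 GC boxes, 1 CCAAT box at -48 and cyclic AMP elements at -98 and -34. Jun held a GC box at -89, a CCAAT box at -65 and a heat shock element core at -128. Stat6 and Inpp5d, with 6 and 5 CpG, held none of these motifs. A match is a string of letters in the window and not evidence of binding.

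The promoters of the broad regions as a group were GC-rich. A start at a broad region was found for 343 genes whose strand was in the promoter table. Genes without a strand there were left out. Of the 343, 321 had a usable window, with its start within 1 kb of the outer gene start. Windows were taken over 300 bases, from 250 before to 50 after that start. The median G and C content of the 321 was 67.7%. It was 61.3% for 7803 genes at gene-end regions under 1500 bp and 48.7% for 7330 genes without a gene-end region in all 8 lists. The median number of CpG dinucleotides per window was 29, 22 and 3 in the same order. A window with over 55% G and C and an observed to expected CpG ratio over 0.6 was found for 80.4% of the genes at broad regions, 66.3% of those at narrower ones and 41.4% of all 15752 promoters in the table.

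Motif shares differed from motif to motif. The GC box was present in 79.4% of promoters at broad regions, 68.0% at narrower regions and 46.7% of all promoters. The CCAAT box was present in 35.2%, 40.3% and 39.4%, and the TATA box in 6.85%, 6.23% and 13.7%. The cyclic AMP element was found in 4.67%, 3.70% and 2.38%. AP-1 motifs were found in 3.12% at broad regions, 4.23% at narrower regions and 7.00% of all promoters. The heat shock element core was present in 7.17% (23 genes) at broad regions, 11.5% at narrower regions and 13.9% of all promoters. These shares were not tested, because promoters are not replicates and base composition differs between the sets.

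The merged widths ran from 1500 to 2542 bp with a median of 1643 bp. There were 142 regions of 1500 to 1600 bp, 142 of 1600 to 1800 bp, 51 of 1800 to 2000 bp, 26 of 2000 to 2200 bp and 15 wider than that. Just inside the limit were Nfatc3, an NFAT transcription factor gene, at 1500 bp, and Itprip at 1503 bp. Just outside it were Slc25a1, the mitochondrial citrate carrier, and Ankhd1, both at 1498 bp. On average a library covered less than the merged width. The union of 8 lists takes the outermost edges, and stretches without a peak inside a region also lower the covered length. The part of each in the shortfall was not tested. Some libraries covered all of the merged width, as MUT 27 did at Tnpo1 (1847 bp). The mean covered length had a median of 1501 bp, which was 90.7% of the merged width. Only 102 regions were covered over at least 1500 bp in each of the 8 libraries.

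The broad regions were seldom the top-scoring ones. The lists give each peak a score, which is the authors' own value and is used here only as a rank within its own list. The strongest peak of a broad region stood at a median percentile of 65.3 (mean over the 8 lists), compared with 74.9 for the 10852 narrower gene-end regions and 61.1 for the 131 equally wide regions away from gene ends. Only 3 of the 376 regions (0.798%) averaged above the percentile of 90, compared with 21.5% of the narrower ones. These were the regions of Serbp1 (percentile 96.3), an mRNA-binding protein gene, Thap2 with Zfc3h1 (91.8) and Cggbp1 with Zfp654 (91.2). At the other end stood Sinhcaf, a SIN3 deacetylase complex gene (21.9), Tmem121b (24.97) and Vgll4, a TEAD cofactor gene (29.7). The median percentile was 71.0 for widths under 1600 bp, 65.3 for 1600 to 1800 bp, 59.4 for 1800 to 2000 bp, 49.2 for 2000 to 2200 bp and 57.9 for the widest class, a description across regions that share 8 libraries.

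**Figure D1:**
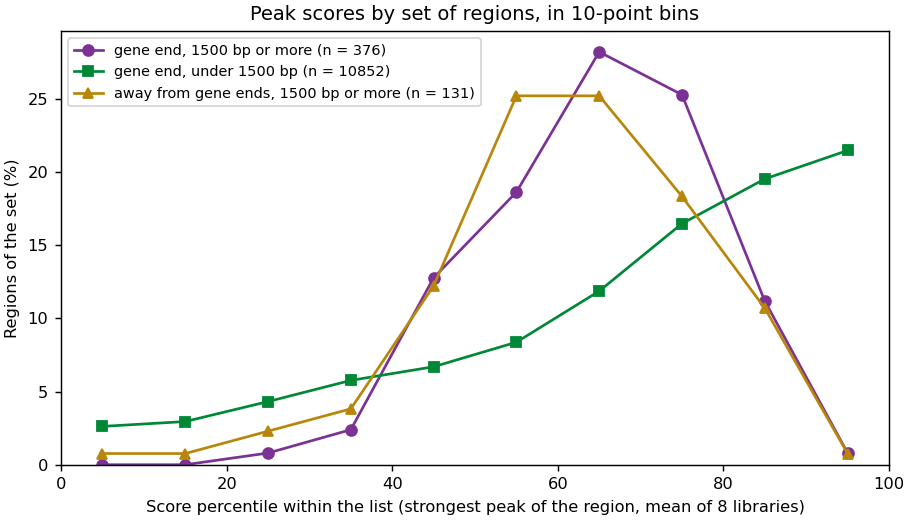
Share of each set of regions (%) against the percentile of the region's strongest peak within its own list (mean of 8 libraries, 10-point bins), for 376 broad gene-end regions, 10852 narrower gene-end regions and 131 wide regions away from gene ends. The broad gene-end regions gather between percentiles 50 and 80, and 0.798% of them lie above 90.

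Most broad regions sat on a gene start. A start lay within 1 kb of 304 regions (80.9%; narrower gene-end regions, 75.4%), while only 3 (0.798%; narrower, 5.80%) had just a 3′ end there. For 69 regions the strand of the gene was not in the table used here. The gene end fell inside the region in 326 cases (86.7%; narrower, 75.7%). More than 1 gene was present at 70 regions (18.6%; narrower, 17.4%). The genes of known strand with a start at a broad region had a median length of 28.1 kb. The median was 21.9 kb for narrower regions and 17.2 kb for all protein-coding genes.

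The extra width reached mainly into the gene. Extents were taken in 228 broad and 5735 narrower regions that held a single gene start of known strand. Merged broad regions extended a median of 590.5 bp upstream and 1096.5 bp downstream, and narrower ones 317 and 528 bp. Starts of genes without a known strand were not counted, so some of these regions may hold another start. The downstream arm was the longer one in 174 of the 228 (76.3%) and in 72.4% of the narrower regions. At 500 bp into the gene, a peak covered 85.5% of the broad and 44.2% of the narrower regions (means of 8 libraries), and at 1000 bp 51.1% and 3.12%. At 500 bp upstream the shares were 51.8% and 13.7%. Bach2 reached 124 bp upstream and 1888 bp into the gene, Ier5 265 and 1752 bp, and Inpp5d 192 and 1555 bp. Tent5a, a poly(A) polymerase family gene, was turned the other way, with 1548 bp upstream and 830 bp downstream, as was Cdc42ep3, an effector of the GTPase CDC42, with 1522 and 748 bp.

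**Figure D2:**
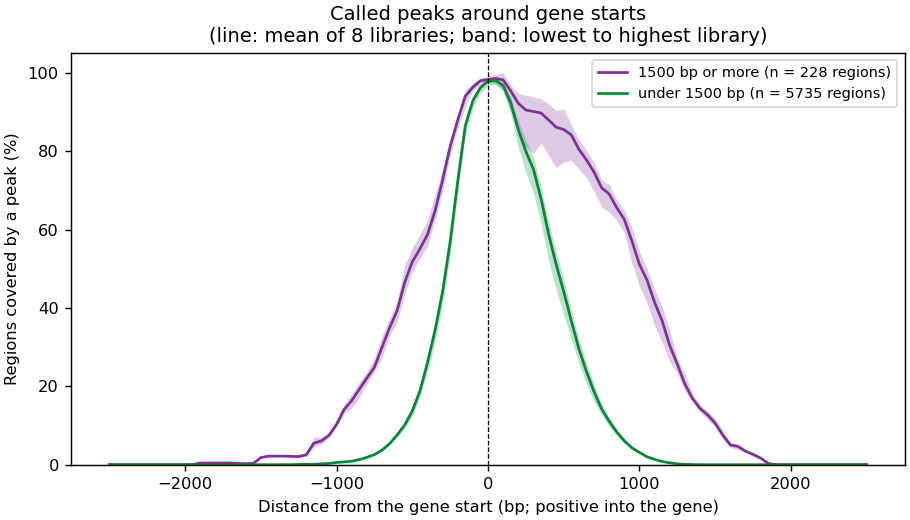
Share of regions covered by a called peak (%) against distance from the gene start (bp, positive into the gene). Shown are 228 broad and 5735 narrower regions with a single start of known strand. Lines are means of 8 libraries and bands run from the lowest to the highest library. At 500 bp into the gene the broad regions vary from 77.2% to 90.8% between libraries.

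Broad regions were often drawn as several peaks. Only 113 of them (30.1%) were a single peak in each of the 8 libraries, compared with 84.3% of narrower gene-end regions and 21.4% of the 131 equally wide regions away from gene ends. A further 23 were split in all 8 libraries and 240 in 1 to 7 of them. The 1328 gaps between peaks had a median length of 108 bp, and 91.2% of them overlapped a gap of the same region in another library. There were 802 gaps in 154 regions with a single start of known strand. Of these gaps, 617 had their midpoint downstream of the start, at a median of 517.5 bp into the gene, and 7 spanned it. The widest of the named regions with 4 peaks in 1 library were those of Sox4, Lsr with Usf2, and Tspo. Sox4 is a SOX family transcription factor gene, Usf2 an E-box factor gene and Tspo a mitochondrial membrane protein gene. Nkx2-4 and Ch25h also reached 4 peaks in 1 library. A gap shows where no peak was called, not that chromatin was closed.

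Libraries differed in how whole the broad regions were. Exactly 1 peak, which need not span the merged width, was present in 256, 209, 231 and 233 regions in WT 4, 5, 6 and 7 and in 246, 256, 240 and 182 regions in MUT 26, 27, 28 and 29. A single peak of at least 1500 bp was present in 171, 122, 138 and 143 regions in WT and 164, 191, 180 and 83 in MUT. The genotypes overlapped in both counts, and MUT 29 was the lowest of the 8. In MUT 29 the median covered length was 1433 bp, against 1492 to 1552.5 bp elsewhere, and 156 regions (41.5%) had their shortest length there. The mean width of all its peaks was also the lowest of the 8, 476 bp against 489 to 501 bp. Over the 8 libraries, 51 regions had a single peak of at least 1500 bp in each and 83 in none. The median coefficient of variation of covered length was 4.02% in WT and 6.30% in MUT, and 3.50% in MUT without replicate 29. In narrower gene-end regions the same values were 4.87%, 6.09% and 4.50%. Leaving out MUT 29 was chosen after its values were seen and no WT library was left out, so the last value is not comparable with WT. The lists held 42695 to 49627 peaks. Read depth is unknown for these files, so its part in the state of MUT 29 was not tested.

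**Figure D3:**
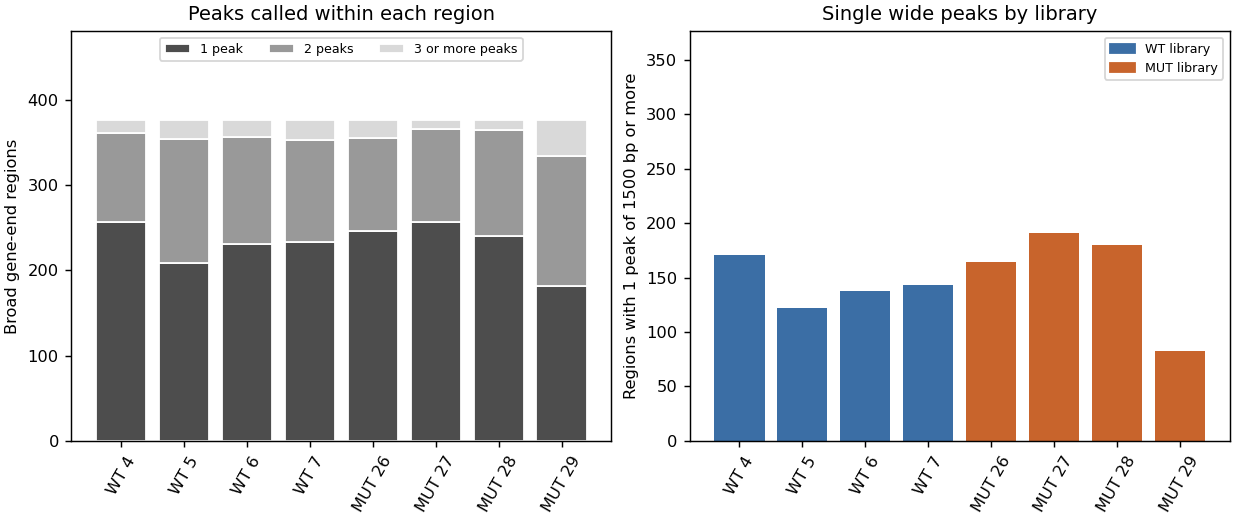
Left, the number of broad gene-end regions drawn as 1, 2, or 3 or more peaks in each library (stacked bars, 376 in all). Right, the number that held a single peak of 1500 bp or more, by library, with WT and MUT in different colours. MUT 29 has the fewest in both, 182 and 83.

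Gene lists chosen with the tissue and the mutation in mind fell unevenly on the broad regions. Of genes with a gene-end region in all 8 lists, 7 of 23 AP-1 and immediate early genes had a broad one, 5 of 18 histone genes, 4 of 20 NK lineage transcription factors, 4 of 23 transcription and RNA machinery genes, 3 of 19 chromatin regulators, 3 of 27 chaperone genes, 2 of 24 cytokine receptor and JAK-STAT genes, 1 of 19 proximal signalling genes and 1 of 26 ribosomal protein genes, beside 4.02% of all genes. None was found among 19 NK receptors and adaptors, 17 NK effector genes, 19 trafficking, 19 interferon response, 18 metabolism, 17 cell cycle, 15 NF-kB and 12 survival genes. In lists this short, a count of none or 1 cannot be told apart from the 4.02% of all genes. A lack of broad regions at these genes is therefore not shown. The widest NK receptor or effector region belonged to Cd247, the CD3 zeta chain, at 1455 bp. Prf1, which encodes perforin, had 1049 bp, Gzmb, a granzyme gene, 937 bp and Ifng 857 bp. Ncr1, the NKp46 receptor gene, had 619 bp and Klrk1, the NKG2D receptor gene, 365 bp. The median widest region of a gene was 619 bp for NK receptors, 937 bp for effectors, 1087 bp for immediate early genes, 1181 bp for histone genes and 912 bp for all 11138 genes. Counts and medians are given as descriptions of these lists.

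**Figure D4:**
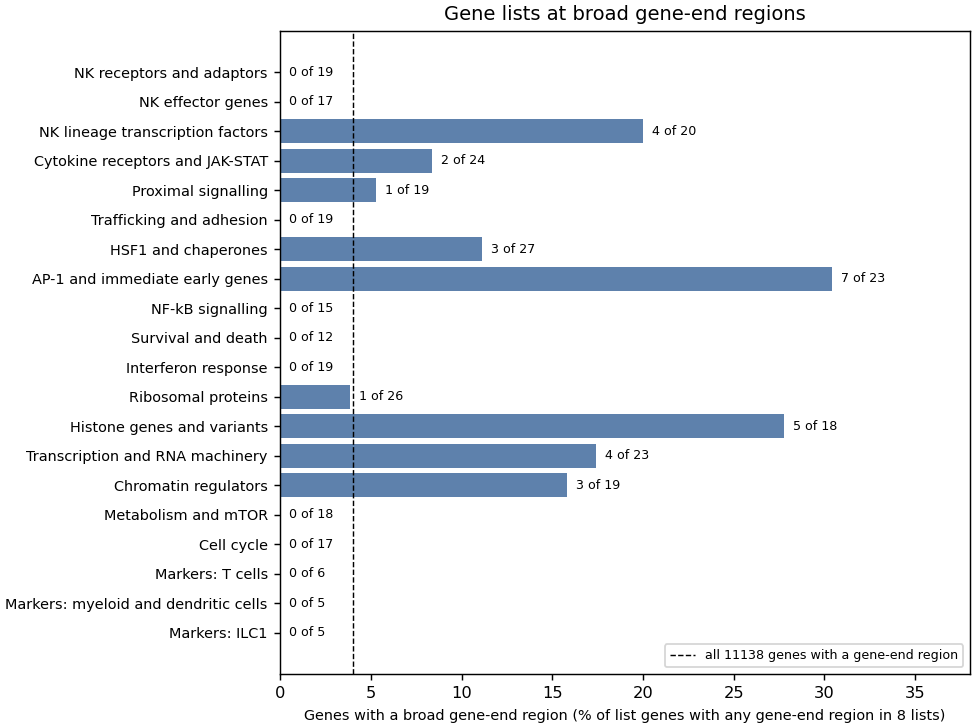
Share of the genes of each list that have a broad gene-end region (%), among genes of the list with any gene-end region in all 8 lists of peaks, with the counts beside each bar and the share of all 11138 genes as a dashed line (4.02%). Lists with under 5 such genes are not drawn. Immediate early genes and histone genes have the longest bars, and 11 of the 20 lists drawn have none. In lists this short, a count of none cannot be told apart from the dashed line.

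Immediate early genes, which respond to signals within minutes, gave some of the widest regions. Jun (chr4:95050484-95052950, 2467 bp) was the second widest of all, and reached 728 bp upstream and 1738 bp downstream of its start. Its covered length was 2466, 2423, 2412 and 2443 bp in WT and 2274, 2436, 2316 and 2165 bp in MUT. MUT 26, 28 and 29 were below every WT library, while MUT 27 lay within the WT range (log2 difference -0.09, SE 0.0172; limma, adjusted p = 0.165). Btg1, an antiproliferative gene, covered 1939, 1939, 1921 and 1920 bp in WT and 1982, 2063, 2054 and 1810 bp in MUT, so the MUT values lay on both sides of the WT ones. Ier5, which encodes a nuclear protein linked to HSF1 activity, covered 1964 to 1983 bp in WT and 1996 to 2003 bp in MUT. These groups did not overlap in raw length, but the fitted log2 difference after scaling of the libraries was 0.0019 (SE 0.0267; limma, adjusted p = 0.990). Btg2, Jund, Dusp1, a MAP kinase phosphatase gene, and Ier2 were 2022, 1883, 1870 and 1736 bp wide. Of the same list, Fos at 1413 bp and Junb at 730 bp stayed below the limit.

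The NK lineage transcription factors at broad regions were Bach2, Nfil3, Foxo1 and Maf. Bach2, a repressor that restrains lymphocyte effector programmes, covered 2008, 1966, 1988 and 1804 bp in WT and 1630, 1869, 1651 and 1605 bp in MUT. MUT 27 was above WT 7, so the groups overlapped (log2 difference -0.20, SE 0.0377; limma, adjusted p = 0.174). Nfil3, a factor needed for NK development, covered 1618, 1351, 1596 and 1614 bp in WT and 1745, 1668, 1578 and 1587 bp in MUT, with WT 5 the shortest. Foxo1, a factor of lymphocyte quiescence, covered 1616, 1453, 1545 and 1525 bp in WT and 1246, 1495, 1417 and 1124 bp in MUT. Only MUT 27 reached the WT range (log2 difference -0.21, SE 0.0554; limma, adjusted p = 0.298). Maf was 1521 bp wide. The T-box genes that define the lineage had narrower regions, 1030 bp at Eomes and 475 bp at Tbx21.

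Cytokine and proximal signalling genes were few. Stat6 (2392 bp) covered 2274, 2385, 2332 and 1985 bp in WT and 2020, 2118, 2188 and 1987 bp in MUT. WT 7 lay at the level of the lowest MUT library, and the other WT libraries were above all MUT libraries (log2 difference -0.12, SE 0.0484; limma, adjusted p = 0.511). Socs1, a feedback inhibitor of cytokine signalling, was 1833 bp wide but covered only 68.0% of that on average, with 1198, 1547, 1025 and 1346 bp in WT and 1155, 1144, 1341 and 1210 bp in MUT. Inpp5d, whose product acts downstream of NK receptors, covered 1637, 1582, 1684 and 1485 bp in WT and 1713, 1671, 1672 and 1336 bp in MUT. MUT 29 was the shortest and the other MUT libraries were near the longest WT ones.

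Chaperone genes, many of them known targets of HSF1, had 3 broad regions. Hsp90ab1, the constitutive cytosolic HSP90 gene, was the steadiest of them, with 2105, 2063, 2098 and 2089 bp in WT and 2091, 2104, 2073 and 2085 bp in MUT, as a single peak in every library. The genotypes overlapped completely (log2 difference -0.02, SE 0.0269; limma, adjusted p = 0.902). Hsp90b1, the HSP90 of the endoplasmic reticulum, shared its region with Ttc41 and covered 1475 to 1530 bp in WT and 1476 to 1575 bp in MUT. The region of Dnajb4, an HSP40 gene, and Fubp1, a MYC regulator gene, covered 1428 to 1467 bp and 1463 to 1523 bp. Hsf1 itself (957 bp), the inducible gene Hspa1b (989 bp), Hspa8 (1239 bp) and Hsp90aa1 (1221 bp) lay below the width limit.

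Histone genes and RNA-binding protein genes formed the other groups. The region with H3c1, H4c1 and H1f1 (chr13:23761058-23762917) covered 1816, 1711, 1698 and 1804 bp in WT and 1812, 1769, 1839 and 1682 bp in MUT, which overlapped. H1f4 with H2bc6 covered 1752, 1762, 1691 and 1763 bp in WT and 1756, 1756, 1752 and 1754 bp in MUT, or 99.1% of the merged width, with WT 6 the shortest. Hnrnpk, which encodes an RNA-binding protein and shares its region with Rmi1, covered 1606 to 1699 bp in WT and 1616 to 1871 bp in MUT. The splicing factor gene Srsf2, with Mfsd11, covered 1590 to 1673 bp in WT and 1658 to 1759 bp in MUT. Both ranges overlapped between genotypes (limma, adjusted p = 0.603 and 0.675). The RNA polymerase II gene Polr2a was 1660 bp wide, near the median of the broad regions, and Polr2b, at 1505 bp, lay just above the limit. By symbol family, 6 of 19 Hnrnp genes, 3 of 6 Tent genes and 4 of 9 alpha-mannosidase genes had a broad region. The families were chosen after the values were seen, so high shares are partly a matter of choice. Arhgap genes had 3 of 26, Usp genes 3 of 39, Zfp and Zbtb genes 10 of 317, and Rpl and Rps genes 1 of 82. The share over all genes with a gene-end region was 4.02%. The ribosomal exception was Rpl7, in a 2225 bp region shared with the retinol dehydrogenase gene Rdh10.

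Of the chromatin regulators, Ctcf, Crebbp and Ep300 had broad regions. Ctcf, the insulator protein gene, covered 1112, 1123, 1551 and 1324 bp in WT and 1532, 1575, 1566 and 1475 bp in MUT. WT 4 and WT 5 were the short ones, and WT 6 lay among the MUT libraries (log2 difference 0.23, SE 0.0889; limma, adjusted p = 0.472). Crebbp covered 1227, 1220, 942 and 1191 bp in WT and 1202, 1290, 1157 and 955 bp in MUT, or 70.1% of the merged width, and was never a single peak. Ep300, which encodes the acetyltransferase p300, was steadier, with 1413 to 1472 bp in WT and 1411 to 1484 bp in MUT.

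The other regions among the widest are given here by gene, and a shared role was not tested. The widest of all, 2542 bp on chromosome 9, lay at predicted genes. Kdm7a, a histone demethylase gene, was 2337 bp wide, covered 1809 to 2092 bp in WT and 1944 to 2239 bp in MUT, and was a single peak in no library. Lpxn with Zfp91, Lbh, Foxd2, a forkhead factor gene, and Zmynd11, a chromatin reader gene, were 2307, 2292, 2279 and 2254 bp wide. Named for its gene number, the region of Eif4enif1 and Sfi1 with a predicted gene was 1545 bp wide. It covered 1199 to 1437 bp in WT and 1123 to 1492 bp in MUT. The least filled regions were those of Dll1, a Notch ligand gene, at 49.5% of the merged width, Nkx2-4, a homeobox gene, at 50.5% and Fhod3, a formin gene, at 53.9%. Dll1 covered 972, 1302, 589 and 1342 bp in WT and 1122, 1019, 1351 and 825 bp in MUT. Both genotypes held short and long values. In a bulk sample, an opening in few cells and a weak opening in all cells cannot be told apart.

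Between the genotypes, no broad region passed the test. Covered length was compared with limma on log2(covered bp + 200) over all 34461 regions with a peak in all 8 lists, and fold changes are on that scale, which understates changes of short lengths. At an adjusted p of 0.05, 0 of the 376 broad regions were called, against 0.0871% of all regions tested (30, with 19 higher in MUT, 0.0551%, and 11 lower, 0.0319%; without scaling of the libraries, 24 higher and 7 lower). At an unadjusted p under 0.05 there were 44 broad regions (11.7%), 17 higher and 27 lower in MUT, beside a background of 9.43% (4.89% higher and 4.54% lower). This lean turned round without scaling of the libraries, with 33 broad regions, 22 higher and 11 lower, beside 8.85% of all regions (6.15% higher and 2.70% lower). The median log2 difference was -0.0056 for broad regions and -0.0055 for all regions. In raw covered length the genotypes did not overlap at 18 broad regions (4.79%), 12 higher and 6 lower in MUT, beside 5.41% of all regions tested (3.76% higher and 1.65% lower). The share without overlap was near the background. Under other settings of the same test at most 5 broad regions were called: 1 without scaling of the libraries (background 0.0900%), 5 with only the upper 50% of each list by score (0.659%), 1 with equal numbers of the strongest peaks (0.163%), 1 without MUT 26 (0.0783%) and 1 without MUT 29 (0.145%).

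The region with the lowest p lay at Tnpo1, which encodes a nuclear import receptor, beside a predicted gene (chr13:98925023-98926869). It covered 1388, 1405, 1389 and 1417 bp in WT and 1705, 1847, 1701 and 1816 bp in MUT, a single peak in every library. Every MUT library was above every WT library (log2 difference 0.28, SE 0.0368; limma, adjusted p = 0.0549). The adjusted p ran from 0.0166 to 0.753 over the alternatives, and without MUT 29 it was 0.0206. Csf2ra, the alpha chain of the GM-CSF receptor, covered 1644, 1619, 1621 and 1533 bp in WT and 1481, 1404, 1341 and 1273 bp in MUT. All MUT libraries were below all WT libraries (log2 difference -0.21, SE 0.0372; limma, adjusted p = 0.151, and 0.0314 without MUT 26). These and the next regions were singled out after their values were seen.

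Of the other regions with low p, Alyref2, an mRNA export adaptor gene, covered 1178 to 1484 bp in WT and 1698 to 1809 bp in MUT. Esyt1, a gene of membrane contact sites, covered 1098 to 1365 and 1435 to 1657 bp, and Wdr37 1198 to 1467 and 1538 to 1773 bp. In these 3 the groups did not overlap and MUT was higher, without passing the adjusted threshold (limma, adjusted p = 0.207, 0.241 and 0.256). Adrb1, the beta-1 adrenergic receptor gene, covered 1213 to 1533 bp in WT and 971 to 1132 bp in MUT. Ch25h, which makes 25-hydroxycholesterol, had the largest fitted difference of all broad regions, -0.60 on the log2 scale (SE 0.147; limma, adjusted p = 0.268). It covered 1069, 1260, 908 and 1575 bp in WT and 669, 687, 915 and 628 bp in MUT, and MUT 28 overlapped WT 6. It was never a single peak.

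**Figure D5:**
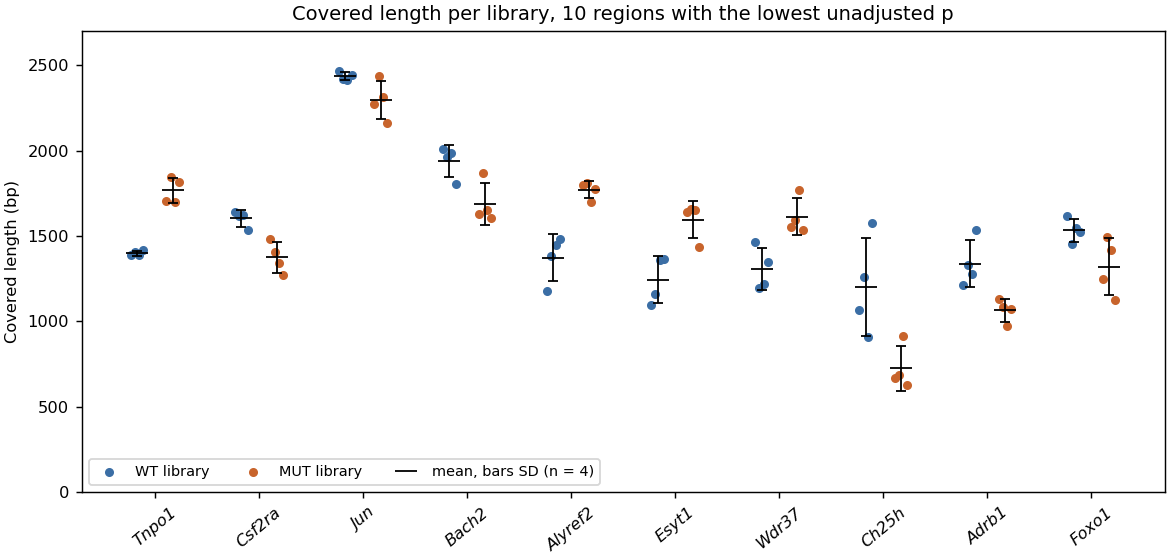
Covered length (bp) per library at the 10 broad gene-end regions with the lowest unadjusted p, in order of p from left to right. Points are single libraries (4 WT, 4 MUT), and dashes with bars are the mean and SD. Tnpo1 shows the clearest separation, with 1388 to 1417 bp in WT and 1701 to 1847 bp in MUT, and none of the 10 passed an adjusted p of 0.05.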

How the data were processed

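ATAC-seq peak lists of 8 libraries, 4 WT and 4 MUT, 1 mouse each, were used as deposited by the authors. Each list gives peak positions (mm10) and, per the file's columns, a score for each peak, which is the authors' own and is ranked here only within its list. The submitters' processing notes name DiffBind 3.0.12, DESeq2, Bowtie2 2.3.4.1 and Trimmomatic. The peak caller, its threshold and the scale of the score are not stated by the labels. Read counts are not part of the lists. Depth is therefore unknown and no counting interval can be given.

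Peaks were merged in Python 3.11.15. Gene ends came from the RefSeq gene table and promoters from the RefSeq promoter table, both GRCm38.p6. Covered bp per region and library, scaled to equal totals over the 34461 regions with a peak in all 8 lists, was tested with limma 3.58.1 (R 4.3.3) on log2(bp + 200) with a mean-variance trend and Benjamini-Hochberg adjustment over all regions. The code was tested on simulated data. Alternatives were the pseudocount, scaling, region filter, peak score, width and distance limits, and leaving out each library. Leaving out libraries from the definition of the broad regions, and the list counts under each definition, were added after seeing the data.

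Named were the 12 widest regions, the 2 widest of each list, 2 on each side of the width limit, 3 each by peak number, covered share and gene number, and fixed NK and heat shock genes. Any region past the limma threshold would have been named, up to 10 a direction. Other genes were named after their values were seen. Predicted genes were counted (24), not named. The values of 1 region covered by this rule are not reported here. Of 463 list entries 2 matched no gene. The regions, the lists and the tests were chosen with earlier results of these data known.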

Additional observations from a re-analysis of the deposited data

Results flagged for a closer look

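Among 100 groups of 4 libraries examined, 9 held a library far from the others by Dixon's test; chance marks about 1 in 20 such groups. At Nfil3 the lowest WT library (WT 5) covered 1351 bp against 1596 bp in the next, at H1f4 with H2bc6 the lowest (WT 6) 1691 bp against 1752 bp, and at Crebbp the lowest (WT 6) 942 bp against 1191 bp. At Lbh the highest MUT library (MUT 27) covered 2272 bp and the next 2063 bp. MUT 29 was the low library at Inpp5d (1336 against 1671 bp), at Lsr with Usf2 (1593 against 1921 bp) and at Esyt1 (1435 against 1641 bp), and its mean peak width over the whole list, 476.11 bp, was far below the next of its group, 497 bp. The number of broad regions covered over at least 90% of their width was highest in WT 4, at 243, with 206 in the next WT library.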

How the results depend on the processing

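With a minimum width of 1000 bp there were 3590 broad gene-end regions, and with 2000 bp 41. The other definitions gave 260 to 390, and leaving out 1 library 345 to 369. Genes with a broad region numbered 2 for NK receptors, 6 for NK effectors and 16 for immediate early genes at 1000 bp, and 0, 0 and 4 at 2000 bp. Immediate early genes numbered 1 with only the upper 50% of each list. The share over all genes was not computed under these definitions, and the share at 1500 bp does not apply to them. These list counts therefore cannot be read against a background. Regions past the threshold numbered 1 without scaling (Tnpo1, adjusted p = 0.0166) and 1 with equal numbers of peaks (Tnpo1, adjusted p = 0.0304). They numbered 0 to 1 when 1 library was left out (Csf2ra without MUT 26, adjusted p = 0.0314; Tnpo1 without MUT 29, adjusted p = 0.0206). With only the upper 50% of each list they numbered 5. These were Esyt1, higher in MUT, and Arid3a, Socs1, Rsrp1 and Fbxl14, listed at 0 bp in every MUT library because their peaks there ranked in the lower part of the list. Under that setting Wdr37 reversed to -0.49 and Adrb1 to 0.33, and Jun had no length left in any library; the cause was not tested beyond this loss of peaks. The median log2 difference of the broad regions was 0.0098 without scaling, beside 0.0073 for all regions tested. It was -0.029 when regions in at least 2 lists were fitted (all fitted, -0.0187). With all merged regions fitted it was -0.033 (all fitted, -0.019). When 1 library was left out it was -0.012 to 0.00071. The mean number of regions with a single wide peak was 293 with a limit of 1000 bp and 10.5 with 2000 bp, and 225 counted as 90% of the width covered. No paired analysis was possible because WT and MUT share no replicate number. Without read counts, no limit from depth can be set.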

Other observations

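The broad regions were not packed among other open regions. The median number of other regions with a peak in all 8 lists within 50 kb was 3 for broad gene-end regions, 3 for narrower ones and 4 for all 34461 regions. Around single gene starts of known strand, the median SD of the edge over 8 libraries was 17.1 bp upstream and 24.3 bp downstream. The downstream edge varied more in 132 of 228 regions. An olfactory receptor gene, Olfr1258, of a family known from nasal sensory neurons, also had a broad region of 1525 bp. It covered 1252, 1124, 901 and 1306 bp in WT and 1486, 1042, 635 and 1409 bp in MUT, which overlapped. It was named after its values were seen.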
